A study of Mus musculus with 40 samples.

Results

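H3K4me3, histone H3 trimethylated at lysine 4, was compared between cold-exposed and warm-housed mice on a normal chow diet (NCD). The assay was ChIP-seq, in which DNA bound to the modified histone is pulled down with an antibody and sequenced, on brown adipose tissue (iBAT, interscapular per the study's methods, although the series' design text calls the depot inguinal) of wild type C57BL/6N mice aged 20 weeks. Mice 1 and 2 were kept warm and mice 4 and 5 were kept at 4 °C for 24 h. All 4 mice were on chow, and each gave 1 H3K4me3 peak list. The warm mice were at standard housing temperature. The series holds 40 samples of 8 mice, with 32 peak lists. A region was the union of peaks that overlapped by at least 1 bp in any of the 4 lists. The 4 lists held 86341 peaks, which merged into 26299 regions, of 28739 H3K4me3 regions over all 8 mice. A peak was present in both cold and neither warm mouse at 1489 regions and in both warm and neither cold mouse at 1076. The other regions were 16213 present in all 4 mice and 7521 with mixed presence.

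H3K4me3 is laid down by COMPASS-family methyltransferases and marks the start sites of active and poised genes. The signal is highest next to the start site, over unmethylated CpG-rich DNA. Its width varies between genes and is often broad at genes of cell identity. Brown adipose tissue burns lipid for heat in the cold, through adrenergic signalling and uncoupling protein 1. The study's methods can be read as tissue of 2 mice in each sequencing experiment, so a list may stand for 1 animal or for a pool. Whole tissue was dissociated, so a change in cell numbers and a change per cell cannot be told apart.

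Sequences of 8 start sites are shown because the groups of regions differed in base composition. Each is the 250 bases before the RefSeq start site on GRCm38.p6, 5′ to 3′ on the gene's strand, with CpG dinucleotides in capitals. Tnc and Cyp2s1 had a peak in both cold mice only, Rnf43 and C1ra in both warm mice only, Slc16a11 and C1ql3 were wider in the cold, and Esr1 and Calcrl narrower.
Tnc (chr4:64047016-64047265, minus strand): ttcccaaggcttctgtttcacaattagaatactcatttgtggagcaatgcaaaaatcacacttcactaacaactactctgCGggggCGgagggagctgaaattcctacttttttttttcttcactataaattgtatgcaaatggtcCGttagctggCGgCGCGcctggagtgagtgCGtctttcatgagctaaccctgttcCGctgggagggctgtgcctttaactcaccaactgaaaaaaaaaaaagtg
Cyp2s1 (chr7:25816526-25816775, minus strand): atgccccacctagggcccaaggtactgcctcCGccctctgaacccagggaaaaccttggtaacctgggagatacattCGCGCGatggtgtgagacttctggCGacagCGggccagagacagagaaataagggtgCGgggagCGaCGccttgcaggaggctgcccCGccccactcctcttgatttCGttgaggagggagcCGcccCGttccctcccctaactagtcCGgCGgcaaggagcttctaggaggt
Rnf43 (chr11:87662837-87663086, plus strand): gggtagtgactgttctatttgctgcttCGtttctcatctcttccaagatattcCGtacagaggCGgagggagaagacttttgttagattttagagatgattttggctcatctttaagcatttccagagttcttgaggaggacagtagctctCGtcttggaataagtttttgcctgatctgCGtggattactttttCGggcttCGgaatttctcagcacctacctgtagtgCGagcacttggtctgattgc
C1ra (chr6:124512371-124512620, plus strand): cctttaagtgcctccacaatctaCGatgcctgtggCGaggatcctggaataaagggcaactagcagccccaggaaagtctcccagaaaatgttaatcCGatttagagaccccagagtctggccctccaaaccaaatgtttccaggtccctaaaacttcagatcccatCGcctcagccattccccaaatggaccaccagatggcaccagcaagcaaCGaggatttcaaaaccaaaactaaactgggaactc
Slc16a11 (chr11:70213660-70213909, plus strand): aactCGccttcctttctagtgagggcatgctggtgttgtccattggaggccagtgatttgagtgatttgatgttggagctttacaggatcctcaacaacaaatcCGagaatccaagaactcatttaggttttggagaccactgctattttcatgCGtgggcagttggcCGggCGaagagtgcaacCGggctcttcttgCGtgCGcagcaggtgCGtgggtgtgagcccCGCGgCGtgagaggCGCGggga
C1ql3 (chr2:13010865-13011114, minus strand): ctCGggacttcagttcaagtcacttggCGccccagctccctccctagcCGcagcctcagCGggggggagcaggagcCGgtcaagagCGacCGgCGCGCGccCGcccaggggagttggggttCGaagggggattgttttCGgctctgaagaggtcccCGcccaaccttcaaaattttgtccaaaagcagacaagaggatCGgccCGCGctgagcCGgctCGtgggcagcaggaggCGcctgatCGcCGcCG
Esr1 (chr10:4611739-4611988, plus strand): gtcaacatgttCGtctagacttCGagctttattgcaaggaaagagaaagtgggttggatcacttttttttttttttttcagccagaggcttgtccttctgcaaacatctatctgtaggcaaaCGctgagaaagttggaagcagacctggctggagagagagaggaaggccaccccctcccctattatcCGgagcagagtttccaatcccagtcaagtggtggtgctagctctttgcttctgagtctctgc
Calcrl (chr2:84425267-84425516, minus strand): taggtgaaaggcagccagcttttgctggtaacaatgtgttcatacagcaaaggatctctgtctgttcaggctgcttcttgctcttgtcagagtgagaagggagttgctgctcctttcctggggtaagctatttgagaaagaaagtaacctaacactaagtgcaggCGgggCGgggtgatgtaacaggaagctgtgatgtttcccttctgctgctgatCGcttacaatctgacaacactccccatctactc
GC content was 44.8% in Tnc, 62.0% in Cyp2s1, 44.4% in Rnf43, 49.6% in C1ra, 54.8% in Slc16a11, 66.4% in C1ql3, 47.6% in Esr1 and 48.4% in Calcrl, against a median of 52.0% (quartiles 44.8% and 60.8%) over 27025 promoters. The sequences of Slc16a11 and C1ql3 held 14 and 23 CpG, and those of Esr1 and Calcrl 4 and 3. The Tnc sequence, from a region marked only in the cold, was close to the Rnf43 sequence in GC content, although the whole Tnc region had 54.2%.

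The lists differed by temperature in number and width. They held 20304 and 21024 peaks in the warm mice 1 and 2 and 22321 and 22692 in the cold mice 4 and 5. Median peak width was 1117 and 1110 bp in the warm and 839 and 957 bp in the cold. Covered sequence was 25.6 and 26.7 Mb in the warm and 22.0 and 24.96 Mb in the cold. The share of peak summits within 1000 bp of a start site was 68.5% and 65.9% in the warm and 65.1% and 64.5% in the cold. Cold mice thus had more and narrower peaks, and the groups did not overlap in any of these measures. The geometric mean number was 1.09 times and the geometric mean width 0.805 times that of the warm mice. The exact permutation test with 2 against 2 mice cannot go below a two-sided p of 0.333, which all 5 measures reached (adjusted exact p = 0.333), so none can pass.

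The background coverage at which peaks were called also split by temperature. From each peak's fold and −log10 p, the background coverage after the peak caller's scaling was recovered as 3.34 and 4.09 fragments per kb in the warm mice and 5.374 and 4.796 in the cold. Given as coverage depth, a different unit, the scaled background was 0.664 and 0.835 in the warm mice 1 and 2. It was 1.012 in the cold mouse 5 and higher in the cold mouse 4. Before that scaling the order was the reverse, with a depth of 1.98 and 1.49 in the warm mice and 1.16 and 1.30 in the cold. The scaling factors were 0.335, 0.560, 0.988 and 0.776 in mice 1, 2, 4 and 5. Scaled background and temperature cannot be told apart here. The share of peaks whose local background equalled the library's background was 70.9%, 66.2% and 66.8% in mice 1, 2 and 5 and 23.2% in mouse 4. In mouse 4 more peaks were therefore set against a local background above that of the library. The tissue label was checked at start sites. Start sites of 28 of 30 thermogenesis genes, Ucp1, Cidea and Dio2 among them, had a peak in all 4 mice, against 58.9% of protein-coding genes, and the outside controls Alb and Neurod1 had no H3K4me3 peak in any of the 4. Of markers of other cells, 0 of 7 lymphocyte, 0 of 9 macrophage, 5 of 14 skeletal muscle and 7 of 7 endothelial genes had a peak in all 4 mice.

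**Figure D1:**
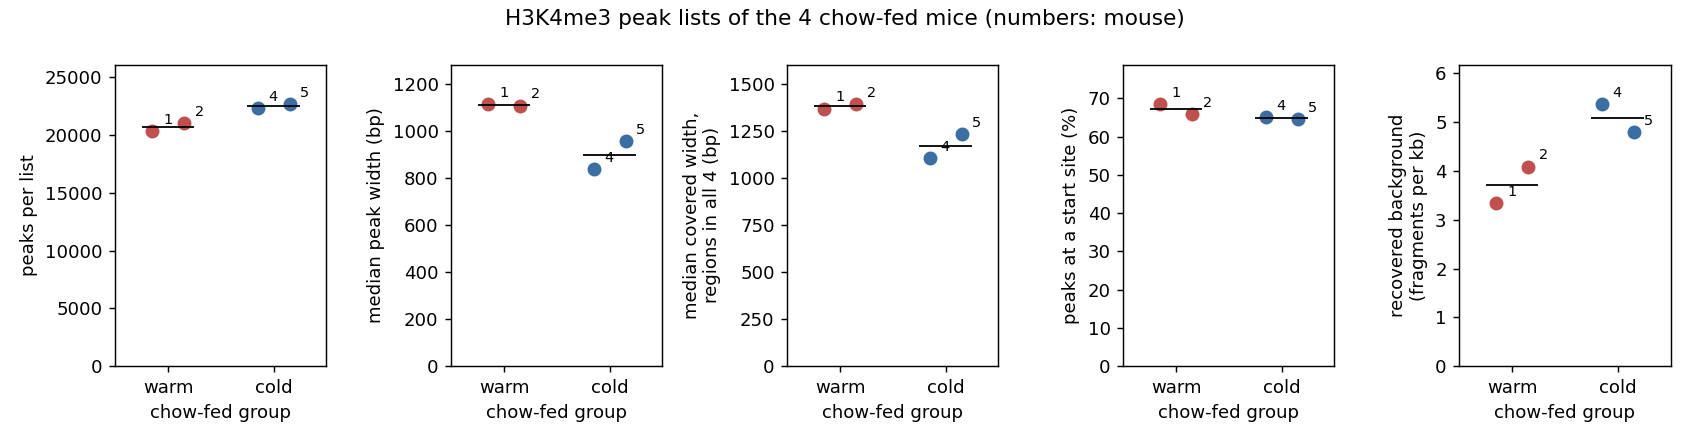
Number of peaks, median peak width, median covered width of regions present in all 4 mice, share of peaks at a start site and recovered background depth in each mouse. Points are mice and black lines are group means (n = 2). Both cold mice (blue) lie above both warm mice (red) in number and depth and below them in width.

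Peak lists of the same temperature shared more bases. The Jaccard index, the shared over all covered bases, was 0.827 for the warm pair and 0.768 for the cold pair. It was 0.652 to 0.693 for the 4 pairs of a warm and a cold mouse. Of the mixed regions, 568 and 1265 had a peak in mouse 1 or 2 alone and 1336 and 1971 in mouse 4 or 5 alone. Regions of exactly 1 warm and 1 cold mouse numbered 82 to 310 per pair.

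The regions marked on only one side made up 5.66% (both cold, neither warm) and 4.09% (both warm, neither cold) of all regions. They were low and narrow in their own lists. The median percentile rank by −log10 p was 15.9 for cold-only and 18.5 for warm-only regions, against 62.2 for regions of all 4 mice, and no cold-only region had both ranks above 42.4. Their median region width was 471 and 452 bp, against 1548 bp in regions of all 4 mice and 352 bp in mixed regions. Cold-only regions lay within 1000 bp of a start site in 27.2% (405 of 1489), and warm-only regions in 14.4% (155 of 1076), against 80.2% of regions in all 4. For mixed regions the share at a start site was 25.6%. Introns held 34.7% of the cold-only and 47.0% of the warm-only regions, against 37.1% of mixed and 18.7% of all regions. Within 1000 bp of a region of all 4 mice lay 11.5% of cold-only and 13.1% of warm-only regions, and the share of mixed regions lay between these. Mixed regions also had a lower median rank than either class. Low rank and narrow width were thus shared with mixed regions, whereas warm-only regions lay less often at start sites and more often in introns. With the same number of highest-ranked peaks (20304) taken from each list, cold-only regions fell to 882 and warm-only regions rose to 1320. With −log10 q of at least 5, the counts were 1747 and 580. Which side held more regions thus depended on how many peaks of each list were used.

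Base composition separated the 2 groups of regions, and the rule did not use it. Median GC content was 58.8% in cold-only and 46.5% in warm-only regions, against 55.9% in regions of all 4 mice. Of 1298 regions under 45% GC, 29.4% were warm-only and 0 were cold-only. Of 7946 regions between 55% and 60% GC, 9.61% were cold-only and 0.164% warm-only, and above 60% no region was warm-only. Regions found in 1 mouse alone had a median of 47.6% and 48.0% in the warm mice 1 and 2 and 57.4% and 61.8% in the cold mice 4 and 5. Each of the 4 libraries therefore showed the split of its own group. The median GC content of whole lists was 55.3% and 55.2% in the warm mice and 58.9% and 58.6% in the cold.

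**Figure D2:**
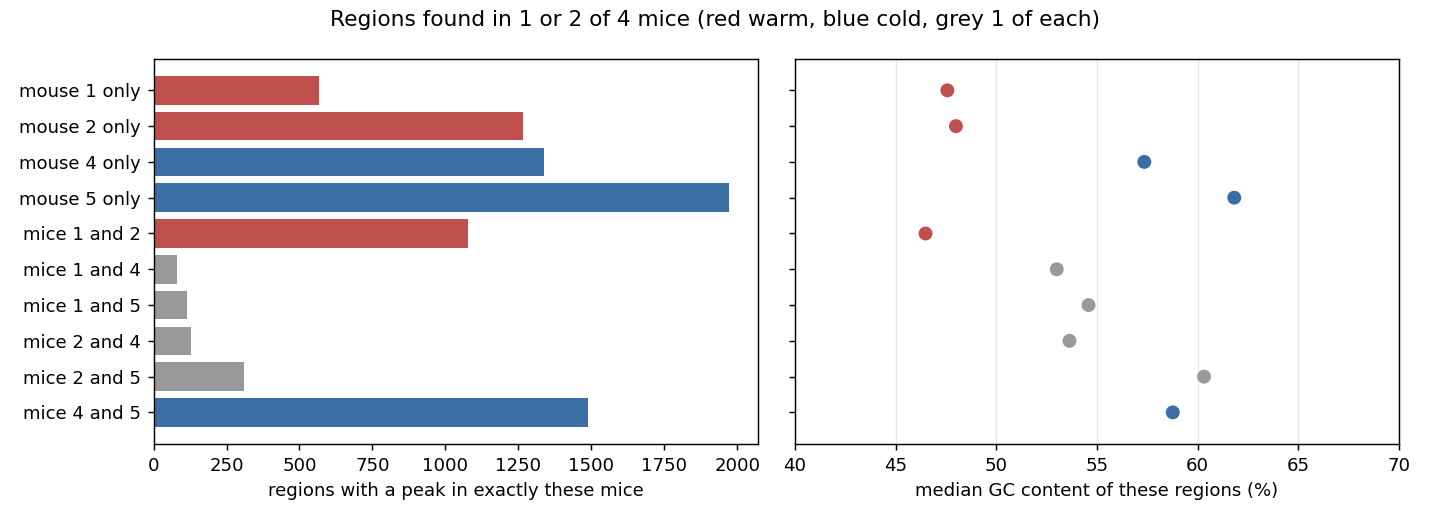
Left, number of regions with a peak in exactly the mice named (bars). Right, median GC content of those regions in percent (points). Regions of warm mice (red) lie between 46.5% and 48.0% and those of cold mice (blue) between 57.4% and 61.8%, with pairs of 1 warm and 1 cold mouse (grey) from 53.0% to 60.3%.

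No other set of lists compared had a higher GC content in both cold mice. H3K4me3 lists of mice on high-fat diet (HFD, 12 weeks) had a median GC content of 54.1% and 55.5% in the warm mice 7 and 8 and 56.3% and 53.8% in the cold mice 10 and 11. H3K27ac lists of the chow mice had 53.3%, 50.9%, 49.3% and 51.3% in mice 1, 2, 4 and 5. In both sets the groups overlapped. H3K4me1 lists of the chow mice separated in the opposite direction, with 54.3% and 51.1% in the warm mice 1 and 2 and 49.8% and 49.2% in the cold mice 4 and 5, where the list of mouse 1 held 592 peaks.

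The same regions were looked up in libraries that had not defined them. An H3K4me3 peak overlapped 5.17% and 44.1% of cold-only regions in the cold HFD mice 10 and 11 and 0.134% and 5.91% in the warm HFD mice 7 and 8. For all regions the shares were 54.3% and 79.0% in mice 10 and 11 and 39.1% and 62.4% in mice 7 and 8. Warm-only regions were found in 13.9% and 77.3% in the cold and 10.1% and 42.5% in the warm HFD mice. In each HFD mouse, warm-only regions were thus found more often than cold-only regions, whatever the temperature. Of cold-only regions 54.7% had no H3K4me3 peak in any HFD mouse, against 18.4% of warm-only and 54.5% of mixed regions. In mouse 11 a peak overlapped 43.7% of mixed regions, close to the share of cold-only regions. The lists of the HFD mice held from 13517 (mouse 7) to 24104 peaks (mouse 11), and the shares moved with that length, whose part was not tested. Median peak width in these lists was 597 and 1010 bp in the warm and 896 and 1031 bp in the cold mice, so the groups overlapped on HFD.

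H3K27ac, an acetylation of active promoters and enhancers, was looked up in the same chow mice. A peak overlapped 34.3% and 31.4% of cold-only regions in the cold mice 4 and 5 and 12.8% and 25.7% in the warm mice 1 and 2. For warm-only regions it was 45.3% and 43.5% in the cold and 21.7% and 48.2% in the warm mice. All regions had 44.3%, 53.4%, 35.8% and 52.7% in mice 4, 5, 1 and 2. Mixed regions had 32.04%, 30.82%, 13.91% and 29.66% in the same order of mice. Cold-only regions were higher in both cold than in both warm mice, and so were mixed regions. This order was thus not particular to cold-only regions. For warm-only regions the groups overlapped. The H3K27ac list of mouse 1 held 16889 peaks, and those of mice 2, 4 and 5 held 28433, 30544 and 30495. H3K27me3, a repressive mark, overlapped 9.40% of cold-only and 0.929% of warm-only regions in mouse 5, whose list held 6428 peaks. In that list it overlapped 5.69% of all regions and 8.43% of the regions with mixed presence. The lists of the other chow mice for that mark held 47 to 309 peaks and overlapped under 1% of either class.

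**Figure D3:**
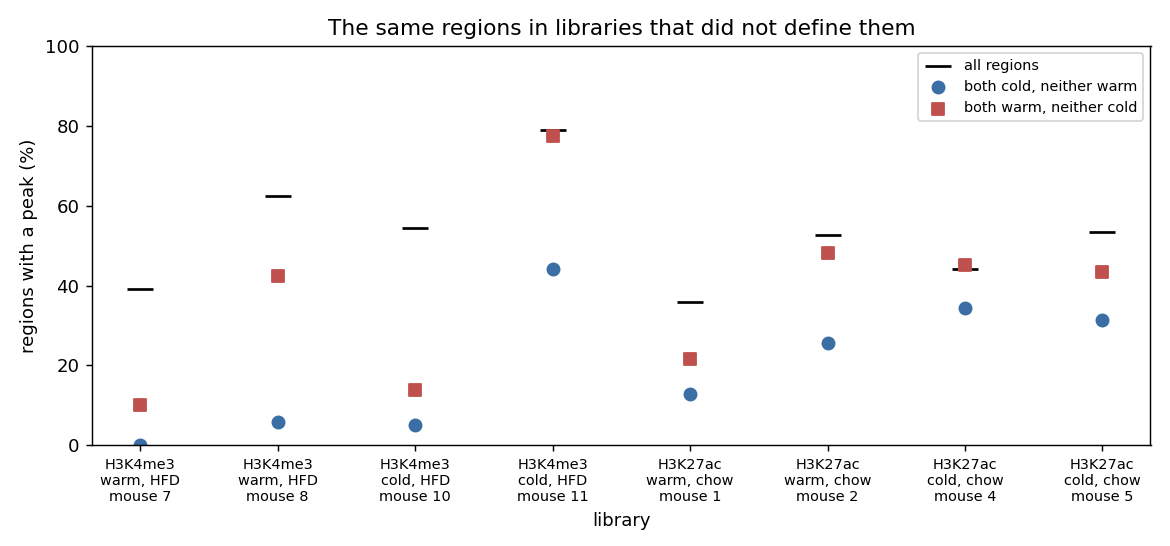
Share of regions (percent) with a peak in libraries that did not define them. Black bars are all 26299 regions, blue circles cold-only and red squares warm-only regions. In all 4 HFD mice the warm-only regions lie above the cold-only regions.

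Among the cold-only regions with the highest lower rank, 7 of 12 lay at a start site. The first was at Smim24, a small membrane protein gene, on GRCm38 chromosome 10, 81393528 to 81394033. Its fold was 18.6 in mouse 4 and 19.4 in mouse 5. At Tnc, which encodes the matrix protein tenascin C, the fold was 12.9 and 15.2 over 709 and 460 bp on chromosome 4, 64046666 to 64047374. At Cyp2s1, a cytochrome P450 gene, it was 10.0 and 13.6 over 670 and 619 bp. At Cacng4, a calcium channel gamma subunit gene, it was 11.6 and 18.6, and intronic regions of Maml3, Tle6 and Lemd1 had folds between 12.0 and 19.5. None of the 12 had an H3K27ac peak in mouse 5, and 1 had one in mouse 4. In the HFD mice 10 of the 12 had H3K4me3 in mouse 11, 2 each in mice 8 and 10, and 0 in mouse 7.

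Of the 12 warm-only regions, 4 lay at a start site. At Rnf43, a ubiquitin ligase gene of Wnt signalling, the fold was 15.9 in mouse 1 and 13.7 in mouse 2, on chromosome 11, 87662498 to 87663134. At C1ra, a complement component gene, it was 14.7 and 7.82. The small nuclear RNA genes Gm22068 (19.7 and 18.6) and Rnu5g (16.1 and 13.1) belong to multicopy families, so reads may be shared between copies. An intronic region of Tmem44 had 13.5 and 11.8. All 12 had H3K4me3 in at least 1 HFD mouse, 8 of them in all 4, and so in cold mice too. GC content ran from 38.8% to 49.8% in these 12 and from 54.2% to 69.8% in the 11 cold-only regions with a value. The named regions of both classes kept their class with peaks within 1000 bp joined. Lists of equal length drop only the lowest-ranked peaks. That setting therefore could not change the class of regions picked for high rank.

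By gene, a start site was marked in both cold and neither warm mouse for 379 of 55450 annotated genes (0.683%) and in both warm and neither cold for 170 (0.307%). With lists of equal length the counts were 237 and 219. Protein-coding genes were 243 of the 379 and 62 of the 170, against 21951 of all 55450. Small nucleolar RNA genes, which guide RNA modification from introns of host genes, were 19 of the 170 and 1 of the 379. How many of all annotated genes are of this type was not counted. RefSeq promoters (250 bases before to 50 after the start) matched 162 of the 243 and 50 of the 62 protein-coding genes. Their median GC content was 59.0% and 46.0%, with a median of 11 and 4 CpG. The GC box GGGCGG, on either strand, was in 58.0% of cold-only and 8.00% of warm-only promoters, against 35.9% of all 27025 promoters and 67.3% of genes marked in all 4 mice. TATAAA, on either strand, was in 10.5% and 22.0%, against 14.2% of all. Genes of mixed presence were near the cold-only genes, with a median GC content of 58.7% and a median of 13 CpG. GGGCGG was in 50.1% and TATAAA in 9.87% of their promoters. Genes with no peak were near the warm-only genes, with a median GC content of 46.7%, a median of 3 CpG and TATAAA in 24.9%. These promoter traits were thus not particular to the cold-only and warm-only genes. A match is a description of the letters, not a binding site.

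Genes of brown fat function were marked at both temperatures. All 20 genes of lipolysis and lipid uptake, 20 of lipogenesis, 20 immediate early genes and 19 clock genes had a peak in all 4 mice, as did 28 of 30 thermogenesis genes, against 58.9% of protein-coding genes and 28.8% of all genes. The exceptions were Ckmt1, a mitochondrial creatine kinase gene, and Bmp8b, a secreted thermogenic factor. Ckmt1 had a peak in both cold mice only, with a fold of 6.73 in mouse 4 and 5.90 in mouse 5, and Bmp8b in mouse 5 alone, with 9.37. Hoxc9, a homeobox gene of white fat, had a fold of 4.45 and 4.21 in the cold mice and no peak in the warm. Ttn, the muscle titin gene, had 4.63 and 5.74 in the warm mice and no peak in the cold. The folds of Ckmt1, Hoxc9 and Ttn were low, against a median of 23.9 in regions of all 4 mice.

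The covered width of the 16213 regions present in all 4 mice was compared next. Its median was 1371 and 1396 bp in the warm mice and 1109 and 1235 bp in the cold, a difference of −0.24 on the log2 scale. At start sites it was 1530 and 1551 bp against 1217 and 1353 bp, and elsewhere 664 and 682 bp against 626 and 684 bp. The narrowing was thus seen at start sites, whereas away from them the groups overlapped. Both cold mice were narrower than both warm mice at 8959 regions (55.3%) and wider at 2527 (15.6%). After joining peaks within 1000 bp the difference remained −0.24. More than 1 peak lay in 9.50% and 5.66% of these regions in the cold mice and 6.38% and 3.68% in the warm.

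Which regions narrowed depended on GC content. Under 45% GC the median covered width was 1386.5 and 1551.5 bp in mice 1 and 2 against 669 and 907 bp in mice 4 and 5. At 65% GC or more it was 884.5 and 942 bp in the warm against 952.5 and 1230 bp in the cold. The direction therefore reversed between the ends of the range. Over 16200 regions, Spearman's rho of the log2 width change with GC content was 0.61, a description across regions that share the same 4 libraries and are not replicates. Within a temperature the corresponding rho was −0.10 for mouse 4 over 5 and −0.05 for mouse 1 over 2, and between temperatures it was 0.47 to 0.60.

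**Figure D4:**
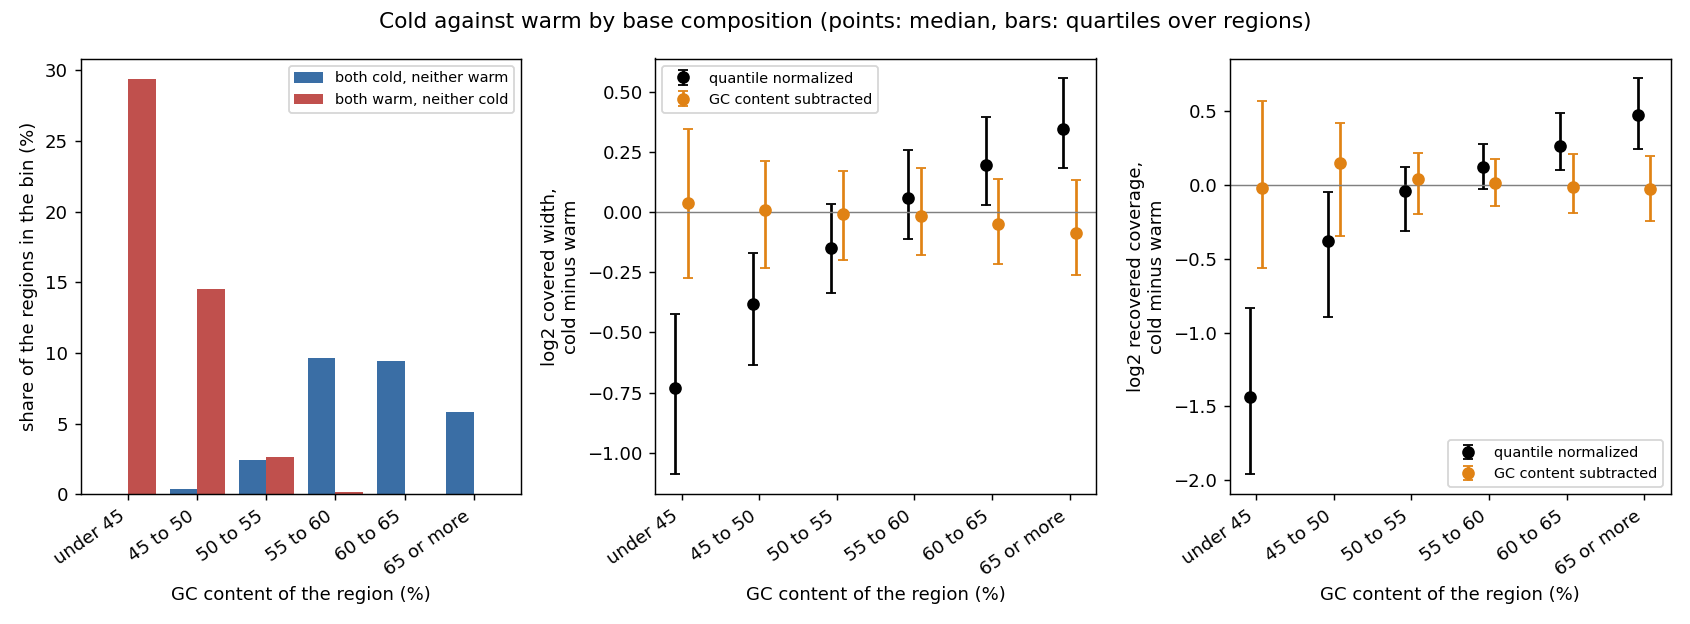
By GC content of the region (percent), the share of regions that were cold-only or warm-only (bars), and the log2 difference, cold minus warm, of covered width and of recovered coverage in regions of all 4 mice. Points are medians and bars quartiles over regions, black after quantile normalization and orange with GC content also subtracted. The black medians rise from −0.73 to 0.34 for width and from −1.44 to 0.48 for coverage.

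Region by region, width was tested with limma on log2 covered bp after quantile normalization, which removes the overall narrowing. At an adjusted p under 0.05, 450 regions were wider in the cold (2.78%) and 496 narrower (3.06%). Without normalization, which leaves a median log2 change of −0.21 in place, 184 were wider and 1250 narrower, so directions below are relative to the overall narrowing. Median GC content was 60.5% in the wider and 49.5% in the narrower regions, against 55.9% in those not called. When GC content was fitted and subtracted in each library, 0 regions passed in limma in either direction, with 1795 wider and 1764 narrower at an unadjusted p under 0.05. Without mouse 4, 0 regions passed in limma, with 2063 wider and 2563 narrower at an unadjusted p under 0.05, and with all 8 H3K4me3 libraries in one fit 1 was wider and 2 narrower among 9842 regions. The width calls below therefore hold for these 4 lists without a term for base composition.

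The wider regions with the largest changes included start sites of Slc16a11, C1ql3, Brinp1, Sel1l3 and Nxph1. At Slc16a11, a monocarboxylate transporter gene, peaks covered 238 and 236 bp in the warm mice and 1040 and 1289 bp in the cold (log2 change 2.36 ± 0.19 SE, limma adjusted p = 0.025). At C1ql3, a secreted C1q-like protein gene, they covered 320 and 345 bp in the warm and 1513 and 1658 bp in the cold. The highest fold at C1ql3 was only 1.88 in mouse 4 (−log10 q 1.66), against 4.83 and 3.91 in the warm mice and 19.8 in mouse 5. At Brinp1, a neuronal gene, peaks covered 273 and 299 bp against 1255 and 1053 bp. Introns of Sbno2 and Tpst2 and an intergenic region 11287 bp from the start of Vps18 also widened, by 2.54, 2.38 and 2.56 on the log2 scale. The wider and narrower regions named were picked for large changes, so a wide gap between cold and warm values was built in.

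The narrower regions with the largest changes included start sites of Esr1, Calcrl, Ankrd17, Enpp2 and Zbtb20. At Esr1, the estrogen receptor alpha gene, peaks covered 1319 and 1369 bp in the warm mice and 219 and 331 bp in the cold (log2 change −2.26 ± 0.24 SE, limma adjusted p = 0.025). At Calcrl, a receptor gene of endothelial cells, they covered 1377 and 1778 bp against 252 and 415 bp. At Enpp2, which encodes autotaxin, it was 1357 and 1381 bp against 363 and 270 bp. In an intron of Nr3c1, the glucocorticoid receptor gene, it was 1053 and 2446 bp against 237 and 342 bp. The 10 narrower regions had 35.5% to 47.4% GC and the 9 wider regions with a value 55.7% to 65.7%. No region of one set reached the range of the other.

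**Figure D5:**
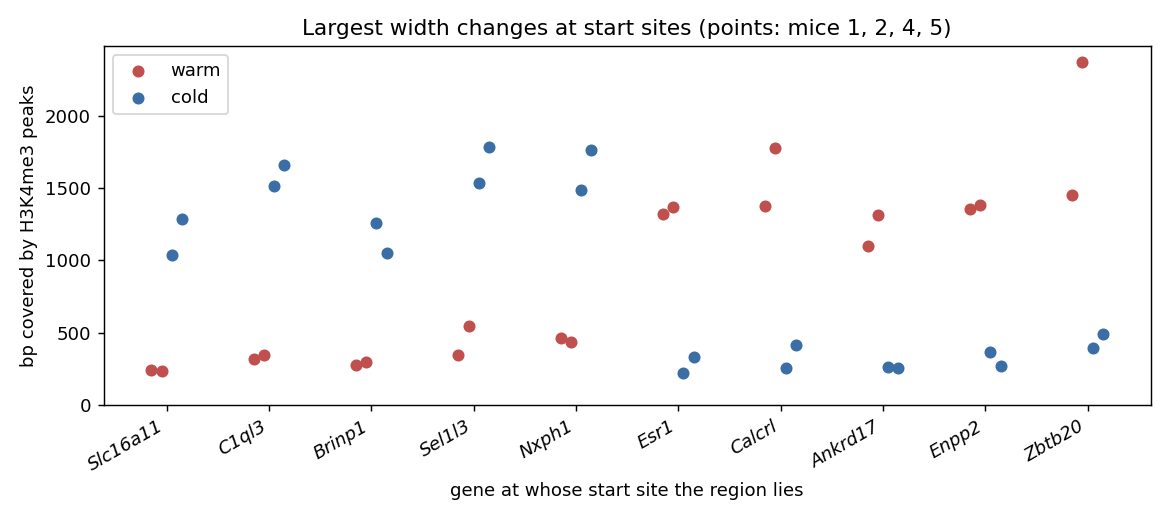
Covered width in bp of the regions at start sites among the 10 largest changes in each direction. Points are the 4 mice, warm in red and cold in blue. In 5 genes both cold mice lie above both warm mice, and in 5 below.

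Among thermogenesis genes, 4 of 28 regions were wider in the cold (14.3%) and 0 narrower, against 2.78% and 3.06% of all regions, with a median log2 change of 0.07 against −0.01. They were at Fgf21 (a hormone secreted by brown fat), Cox8b (a cytochrome oxidase subunit), Cpt1b (mitochondrial fatty acid import) and Adcy3 (adenylyl cyclase). At Fgf21 peaks covered 380 and 318 bp in the warm mice and 829 and 944 bp in the cold (log2 change 1.41 ± 0.21 SE, limma adjusted p = 0.034), on chromosome 7, 45614825 to 45615768. At Adcy3 they covered 1708 and 1593 bp against 1938 and 2045 bp. At Ucp1, which uncouples respiration, they covered 3960 and 3030 bp in the warm and 4072 and 3119 bp in the cold, so the groups overlapped (log2 change 0.25 ± 0.21 SE, limma adjusted p = 0.45). Cidea and Dio2 did not pass either (limma adjusted p of 0.85 and 0.53).

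In lipogenesis, 3 of 20 regions were narrower (15.0%) and 1 wider (5.00%), against 3.06% and 2.78% of all regions, with a median log2 change of −0.28 against −0.01. At Acaca, acetyl-CoA carboxylase 1, peaks covered 8966 and 8669 bp in the warm mice and 2329 and 4177 bp in the cold. At Me1, malic enzyme 1, they covered 2898 and 3086 bp against 1015 and 1165 bp, a log2 change of −1.23 ± 0.08 SE (limma adjusted p = 0.025). Elovl5, an elongase, was narrower and Mlxipl, which encodes ChREBP, wider. In lipolysis and lipid uptake, Plin5 and Gpihbp1 were wider and Abhd5, the activator of the lipase ATGL, narrower, at 2541 and 2534 bp against 1187 and 1272 bp.

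Of 20 immediate early genes 3 were wider, Atf3, Btg2 and Egr2, and 0 narrower, where 2.78% of all regions were wider and 3.06% narrower. Of 18 unfolded protein and integrated stress genes 2 were wider, Gdf15 and Ddit4. At Gdf15, a stress-induced hormone gene whose start site itself had no peak in mouse 1, peaks covered 741 and 1044 bp in the warm mice and 1806 and 2180 bp in the cold (log2 change 1.36 ± 0.16 SE, limma adjusted p = 0.026). None of the 19 clock genes passed for width in limma. Among 7 endothelial markers, Emcn and Tek were narrower. At Emcn it was 902 and 1181 bp against 366 and 426 bp, at 42.3% GC.

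Height gave different answers on different scales. The authors' fold of the highest peak had a median of 21.9 and 24.1 in the warm mice and 16.0 and 54.9 in the cold mice 4 and 5, so the cold mice lay on either side of the warm. In limma on log2 fold 0 of 16213 regions were higher (0%) and 0 lower (0%), with 207 and 515 at an unadjusted p under 0.05. The smallest p among lower regions was at Med6, with folds of 49.3 and 44.2 in the warm mice and 8.11 and 19.4 in the cold, which did not pass (limma adjusted p = 0.93). The smallest among higher regions was in an intron of Tnk2, which did not pass either. Without mouse 5, 1156 regions were higher and 1131 lower.

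Recovered coverage, the summit pileup over the library's background, was added after the test on fold had been seen. It was read at the peak with the highest fold in each region. The local background thus does not enter the value itself but does enter the choice of peak. It could be recovered in all 4 lists at 15789 of 16213 regions. Its median was 60.6 and 56.4 in the warm mice and 128 and 132 in the cold. Without normalization 13462 regions were higher and 482 lower in the cold in limma, with a median log2 difference of 1.24. After quantile normalization 1456 regions were higher relative to the rest (9.22%) and 1952 lower (12.4%) at an adjusted p under 0.05. Directions below are relative to this overall shift. Spearman's rho of the log2 change with GC content was 0.61 over 15777 regions. With GC content subtracted, 973 regions were higher (6.17%) and 1229 lower (7.79%). Of the calls before that, 334 of 1456 higher and 877 of 1952 lower regions were kept, and 53 of the lower ones turned to higher. Leaving out any 1 of the 4 mice left 0 calls in limma without the GC term, with 977 to 2800 higher and 1770 to 2393 lower at an unadjusted p under 0.05. With it, 243 to 1449 regions were higher and 560 to 1531 lower.

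Some list genes were called in the same direction with and without GC subtraction. At Adipoq, which encodes adiponectin, recovered coverage was 58.0 and 54.4 times background in the warm mice and 20.6 and 25.3 in the cold. It was thus lower in the cold also before quantile normalization. The log2 change was −2.20 ± 0.18 SE (limma adjusted p = 5.77e-05), and −1.61 with GC content subtracted. At Elovl3, a cold-induced elongase, coverage was 39.9 and 36.9 in the warm and 30.1 and 21.5 in the cold. Cox7a1 and Irf4, both genes of brown fat thermogenesis, were lower relative to the rest. Before quantile normalization coverage at Cox7a1 was 71.7 and 80.6 in the warm mice against 87.7 and 98.2 in the cold. Fasn and Plin1, fatty acid synthase and perilipin 1, were also lower in both fits. Angptl4, an inhibitor of lipoprotein lipase, was higher in both (log2 changes of 0.33 and 0.44), as was the endothelial receptor gene Flt1 (0.65 and 0.62). Flt1 was the only 1 of 7 endothelial genes higher without GC subtraction, where Cdh5, Emcn and Tek were lower. With it, 2 of the 7 were higher, Flt1 and Kdr, and 0 lower. Of 28 thermogenesis genes 0 were higher and 4 lower without GC subtraction and 2 higher and 3 lower with it. Of 19 lipolysis and lipid uptake genes 1 was higher and 5 lower without it and 3 and 1 with it, and of 19 lipogenesis genes 0 and 5, then 3 and 1. Over all regions 9.22% were higher and 12.4% lower without it and 6.17% and 7.79% with it.

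Of 18 clock genes with recovered coverage, 4 were lower relative to the rest (22.2%) and 0 higher, where 12.4% of all regions were lower. Among the 4 were Nr1d1, which encodes REV-ERB alpha, Per1 and Bhlhe40. With GC content subtracted 4 were lower, these 3 among them, and 1 higher, where 7.79% of all regions were lower. At Nr1d1 coverage was 129 and 129 in the warm mice and 154 and 141 in the cold, a smaller rise than the median of all regions (log2 change −1.04 ± 0.10 SE, limma adjusted p = 8.47e-05). In the stress list Psat1, of serine synthesis, was higher and Ddit3, which encodes CHOP, lower in both fits. Of 8 proliferation genes 3 were higher in each fit (37.5%), Ccnb1 and Mki67 in both, against 9.22% of all regions and 6.17% with GC content subtracted.

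Other genes depended on the GC term. Cd36, a fatty acid transporter gene at 33.3% GC, was lower without it (log2 change −1.71) and higher with it (1.11), both past the threshold in limma. Ppargc1a fell by 1.43 on the log2 scale without it and did not pass with it (−0.15, limma adjusted p = 0.485). Fabp4 went from −1.12 to 0.24, the latter not passing. Ucp1 and Cidea did not pass without it and were higher with it, at 0.51 and 0.45 (limma adjusted p of 0.020 and 0.048). Pparg, the master regulator of adipocytes, went from −0.03 to 1.01. Adcy3, Camk2d, Lep, Prdm16 and the noncoding RNA gene Gm15551 did not pass in coverage in either fit, and Ctcflos was higher only with the GC term.

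Over all regions, the largest coverage changes lay at the ends of the range of base composition. The 10 largest increases had 58.0% to 65.9% GC and included start sites of Eya2, Ryr2 and Drd1. The 10 largest decreases had 38.7% to 49.3% GC and included Nudt13, Agmo, Oxr1, Scp2 and Mr1. At Scp2 the coverage of 9.45 in mouse 4 came from a peak with a fold of 5.52. The highest −log10 q in that region was 18.2 in mouse 4, so a stronger peak there was not the one measured. At Oxr1, an oxidation resistance gene, peaks also covered 1648 and 1825 bp in the warm mice and 436 and 479 bp in the cold. Regions called both wider and higher numbered 133, which was 29.6% of the wider and 9.13% of the higher. Both narrower and lower were 161, 32.5% of the narrower and 8.25% of the lower.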

How the data were processed

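Per the study's methods and the submitters' processing notes, cutadapt removed low-quality reads, bowtie2 placed the rest on GRCm38, and macs2 called peaks against each mouse's own input. No tool version was found in these sources, nor the threshold of the caller. Each deposited list holds a fold enrichment (ratio to local background), and −log10 p and −log10 q, as the authors obtained them for that library. The lowest −log10 q was 1.32. No peak ended beyond any of the 21 reference chromosomes compared. Genes came from GENCODE M21 basic. Coordinates are 1-based.

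Groups followed the labels. The members and lists were chosen with earlier results of these data known. Named regions were the 12 per class with the highest lower percentile rank, the 10 largest passing changes of each limma fit per direction (5 lowest p where fewer than 3 passed), and list genes, each represented by the region most covered. Background coverage and summit pileup were solved from fold and −log10 p, assuming a pseudocount of 1 and a Poisson tail. The −log10 p was matched within 0.5% for 97.9% of peaks in mouse 4 and 99.95% to 99.97% in the others. Regions were tested with limma 3.58.1 (R 4.3.3) on log2 values, quantile normalized, eBayes with trend, Benjamini-Hochberg over all regions, and tested on simulated data. With 2 mice a group, limma p-values rest on variance borrowed across regions as well as on the spread between these samples. The weight of the borrowed part (prior degrees of freedom) was 3.64 for width, 9.58 for fold and 8.26 for coverage. The GC fit (loess) and the coverage measure were added after seeing the data. Alternatives were stricter or equal-length lists, joined peaks, other normalizations and leaving out each mouse. The result of 1 list gene is not reported here.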

Additional observations from a re-analysis of the deposited data

How the results depend on the processing

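No paired analysis was possible because the cold and warm mice share no mouse numbers. Of the alternatives, 73 values kept their direction within the tolerance set for each result, 35 moved beyond it and 1 reversed. The difference in the share of peaks at a start site, −2.41 points, ranged from −5.80 with −log10 q of at least 5 to −1.10 without mouse 1 while keeping its direction. It turned to 1.34 points, higher in the cold, with the same number of highest-ranked peaks in each list, which also gave 882 regions and 237 genes marked in both cold mice only. With −log10 q of at least 5, 580 regions were marked in both warm mice only. Leaving out 1 mouse gave 1890 to 3525 regions on the cold side and 1334 to 2436 on the warm side, where the remaining mouse of a group was enough. Width in limma gave 184 wider and 1250 narrower without normalization, 170 and 224 without the trend, 1 and 2 with all 8 libraries, and 0 and 0 with GC content subtracted. Leaving out 1 mouse gave 0 to 439 wider and 0 to 844 narrower, with the lone mouse assumed to vary like the others. For the authors' fold, leaving out 1 mouse gave 0 to 1156 higher and 0 to 1131 lower, the highest without mouse 5. Recovered coverage in its place gave 1456 and 1952. For recovered coverage, GC content subtracted gave 1229 lower, no normalization gave 13462 higher and 482 lower, and leaving out any mouse gave 0 in both directions. Median-centring in place of quantile normalization gave 1453 higher and 2660 lower. The causes were not tested. With −log10 q of at least 5, 883 of the 1489 cold-only and 444 of the 1076 warm-only regions kept their class.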
